A study of Homo sapiens with 6 samples.

Results

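The TGF-beta and BMP pathway was followed here through 49 genes: ligands, the proteins that store, process or block them, receptors, SMADs with their regulators, and the ID genes with TGFBI. The genes were chosen by symbol from what is known of the pathway, with earlier results of these data known. Each symbol has 1 row among the 50868 gene rows of the deposited count tables. Enough reads for a test were found for 44 of the 49, among 16536 genes tested in all. The 5 role lists used below hold 11 ligands, 10 latency proteins, antagonists and processing enzymes, 11 receptors, 12 SMADs and regulators, and 5 ID and target genes.

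RNA was sequenced from DU145, an established human prostate cancer line that grows without androgen. One group, siCtrl, received a control siRNA and is labelled wild type for RCC2; the other, siRCC2, received siRNA against RCC2, a member of the RCC1 repeat family, and is labelled as the knockdown. Each group had 3 libraries, and the series title places the comparison in work on growth, migration, Hedgehog signalling and stem-like cells. All libraries come from this 1 line, and the siRNA sequence, the time after transfection and whether libraries came from separate cultures are not stated by the labels, and the p-values therefore cover no more than the variation from library to library, possibly technical.

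TGF-beta family ligands are secreted dimers that bring together type I and type II receptor kinases, and the type I receptor phosphorylates receptor SMADs. SMAD2 and SMAD3 carry TGF-beta and activin signals and SMAD1, SMAD5 and SMAD9 carry BMP signals; either kind joins SMAD4 and acts on target genes in the nucleus. TGF-beta is secreted in a latent complex tied to the matrix, whereas many BMPs are held in check by secreted antagonists such as noggin, and the ID genes are among the best known transcriptional targets of BMP SMADs. In prostate epithelium TGF-beta is known as a growth inhibitor whose effect is often lost or altered in cancer.

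RCC2 itself stood at 198, 194 and 191 CPM (counts scaled by TMM to a common library size) in siCtrl replicates 1 to 3 and at 59.3, 57.6 and 54.8 CPM in siRCC2 replicates 1 to 3, a log2 fold change (± SE) of -1.76 ± 0.07 (edgeR adjusted p = 2.00e-05). Library totals ran from 17377191 to 19895431 counts. In a principal component analysis the first component (62.3% of the variance) separated the groups, and on the second (16.4%) siRCC2 replicate 1 lay at 41.5 while siRCC2 replicates 2 and 3 lay at -13.3 and -35.2. Where the call of a gene named below changes without siRCC2 replicate 1, it is given both ways. Counts and medians of the roles and further lists are from all libraries unless stated. Some of these counts and medians change without siRCC2 replicate 1. All 5 epithelial markers were tested (KRT8, KRT18, KRT19, EPCAM and CDH1), and their summed level was 1310 to 1330 CPM in siCtrl and 1620 to 1820 CPM in siRCC2. Of these, KRT8, KRT18 and CDH1 rose (log2 fold changes 0.66, 0.51 and 0.29), EPCAM fell (-0.48) and KRT19 did not pass (-0.15). Without siRCC2 replicate 1 CDH1 did not pass (0.22, edgeR adjusted p = 0.0567) and KRT19 did (-0.23, edgeR adjusted p = 0.0386). Of 14 alternative fits CDH1 passed in 8 and EPCAM in 11. Summed markers of fibroblasts (7 genes, LUM at 0) were 15.1 to 17.8 CPM in siCtrl and 11.1 to 14.6 CPM in siRCC2, those of leukocytes (4 genes, CD3E at 0) 3.56 to 3.82 and 1.89 to 3.3 CPM, those of endothelium (4 genes) 0.943 to 1.46 and 0.315 to 0.824 CPM, and those of neuroendocrine cells (3 genes) 6.55 to 7.01 and 1.87 to 2.52 CPM. Of the fibroblast list COL1A1 and ACTA2 fell (log2 fold changes -0.44 and -2.26), COL3A1 rose (1.34), and COL1A2 (0.64) and PDGFRB (-1.11) did not pass. Without siRCC2 replicate 1 neither COL1A1 nor COL3A1 passed (edgeR adjusted p = 0.0677 and 0.0603). Of the leukocyte list only CD14 was tested, at 3.70 CPM in siCtrl and 2.70 CPM in siRCC2, and it did not pass. Of the neuroendocrine list only SYP was tested, and it fell from 6.58 to 2.00 CPM. The part of these shifts in the results below was not tested. In bulk RNA fewer cells of a kind and less RNA per cell cannot be told apart.

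Pathway genes moved in both directions after RCC2 siRNA. ID2, follistatin, noggin, LTBP2, betaglycan and BMP1 were among those that rose most, and GDF15, BMP8B, LTBP4 and SMAD1 among those that fell most. Of the 44 tested genes, 12 were higher in siRCC2 and 10 lower at an edgeR adjusted p under 0.05, and 22 did not pass. Among all tested genes 41.8% passed, 20.7% higher and 21.1% lower, so a call among the pathway genes, 22 of 44, was about as common as elsewhere. The median log2 fold change was 0.05 over the 44 genes and -0.02 over all tested genes. The groups did not overlap for 24 of the 44, against 55.4% of all tested genes; those 24 are the 22 that passed together with TGFB3 and FSTL1.

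**Figure D1:**
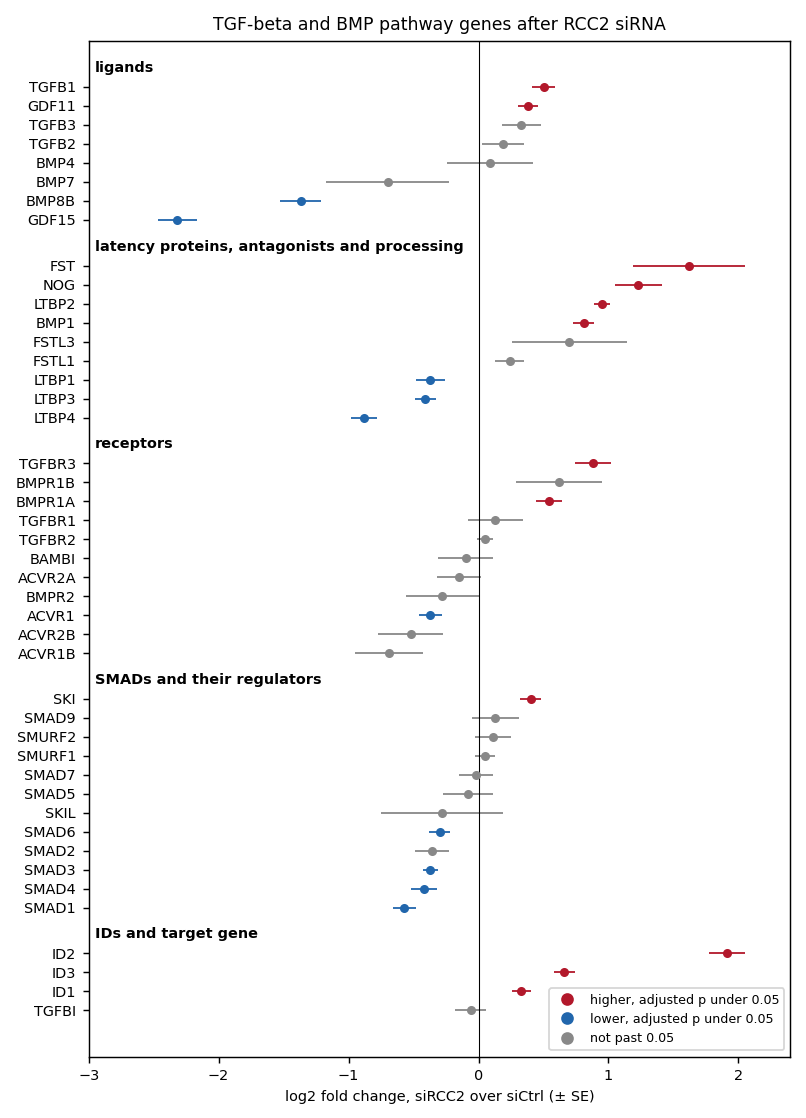
Log2 fold change of siRCC2 over siCtrl (x axis, bars ± SE, edgeR, n = 3 libraries a group) for the 44 tested genes, ordered within each role; red and blue points passed an adjusted p of 0.05. The values run from -2.32 for GDF15 to 1.91 for ID2.

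The plot of fold changes by role shows calls in both directions in every role but the last. Ligands split 2 higher to 2 lower with a median of 0.14. Latency proteins and antagonists split 4 to 3 with a median of 0.70. That median is the value of FSTL3, which did not pass and was -0.09 without siRCC2 replicate 1. Receptors split 2 to 1 with a median of -0.10, and SMADs with their regulators 1 to 4 with a median of -0.18. In the last role 3 of 4 tested genes were higher and none was lower, with a median of 0.50. These counts are descriptions and the roles were not tested against each other.

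The 3 expressed ID genes rose together. They encode helix-loop-helix proteins without a DNA-binding region, which trap other helix-loop-helix factors and are known for holding cells in an undifferentiated, cycling state. Their promoters are shown because these genes moved together and are textbook SMAD targets. Each run gives the 250 bases before the RefSeq start on GRCh38.p14, 5′ to 3′ on the gene's strand, with capitals on GTCT and its reverse complement AGAC, the core of the SMAD-binding element. The windows are chr20:31605039-31605288 on the plus strand for ID1, chr2:8681806-8682055 on the plus strand for ID2 and chr1:23559502-23559751 on the minus strand for ID3. The deposited files draw ID2 and ID3 wider, so that these 2 windows lie wholly inside the gene spans given there.
ID1: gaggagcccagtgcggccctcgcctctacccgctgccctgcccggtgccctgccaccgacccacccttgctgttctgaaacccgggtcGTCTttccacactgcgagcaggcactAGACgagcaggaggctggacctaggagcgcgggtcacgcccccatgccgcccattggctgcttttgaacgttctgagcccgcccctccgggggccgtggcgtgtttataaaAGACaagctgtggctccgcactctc
ID2: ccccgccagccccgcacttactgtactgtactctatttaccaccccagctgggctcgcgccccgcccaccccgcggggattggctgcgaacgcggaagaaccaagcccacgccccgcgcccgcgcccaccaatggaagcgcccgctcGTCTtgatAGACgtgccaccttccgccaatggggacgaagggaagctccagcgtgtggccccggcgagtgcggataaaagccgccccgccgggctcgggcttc
ID3: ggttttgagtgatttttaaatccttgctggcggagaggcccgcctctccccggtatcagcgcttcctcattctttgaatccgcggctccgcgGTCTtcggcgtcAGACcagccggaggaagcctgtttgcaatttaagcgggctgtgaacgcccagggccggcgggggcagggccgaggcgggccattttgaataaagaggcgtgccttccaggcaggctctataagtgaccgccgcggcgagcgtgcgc

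GTCT or AGAC occurs 3 times in the ID1 window, 2 times in the ID2 window and 2 times in the ID3 window. In ID2 and ID3 the pair of matches faces opposite ways a few bases apart. A 4-letter word is common by itself: 77.5% of 35116 RefSeq promoter windows of the same length hold at least 1 match, and 77.6% of the 76 windows of the pathway genes do. The GC-rich BMP SMAD element GGCGCC, which reads the same on both strands, occurs in none of the 3 ID windows, in 16.4% of all windows and in 26.3% of the pathway windows. CCAAT, or ATTGG on the other strand, occurs 3 times in the ID2 window, 1 time in that of ID1 and not in that of ID3, and in 32.0% of all windows. The 3 motifs were searched separately on both strands, so overlapping matches would count for each. A match is a string of letters here and not a measured binding site. Sequence outside these windows was not searched, so absence from a window does not show absence near the gene.

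ID2 (ENSG00000115738) stood at 10.2, 10.1 and 9.02 CPM in siCtrl replicates 1 to 3 and at 41.6, 30.7 and 37.9 CPM in siRCC2 replicates 1 to 3. Every siRCC2 library was well above every siCtrl library. The mean rose from 9.77 ± 0.656 to 36.7 ± 5.53 CPM (SD, n = 3), a log2 fold change (± SE) of 1.91 ± 0.14 (edgeR adjusted p = 0.000125). ID2-AS1, which overlaps ID2 on the opposite strand over 38 exon bases, had 8 to 32 counts a library, far below ID2.

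ID3 (ENSG00000117318) stood at 201, 191 and 197 CPM in siCtrl and 338, 310 and 282 CPM in siRCC2. It too was higher in each siRCC2 library than in any siCtrl library, with a log2 fold change of 0.66 ± 0.08 (edgeR adjusted p = 0.000821). ID1 (ENSG00000125968) stood at 312, 298 and 294 CPM in siCtrl and 413, 371 and 356 CPM in siRCC2. Its groups were apart but closer, with a log2 fold change of 0.33 ± 0.07 (edgeR adjusted p = 0.0107), and without siRCC2 replicate 2 the adjusted p was 0.0515. ID4 had 0 counts in all 6 libraries, where a count of 0 allows at most 3 counts, or 0.149 to 0.181 CPM, counting error only.

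Per kb of merged exons ID1 was the highest of the 49 genes in siCtrl and ID3 the next, on a scale where ID2 was a minor part of the family. The summed ID level per kb was 370, 353 and 352 CPM in siCtrl replicates 1 to 3 and 542, 488 and 462 CPM in siRCC2 replicates 1 to 3. ID2 made up 1.25%, 1.30% and 1.16% of that sum in siCtrl and 3.48%, 2.86% and 3.71% in siRCC2. So the family sum came almost wholly from ID1 and ID3 in both groups, while the steepest rise was that of its least expressed detected gene.

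TGFBI, a secreted matrix protein named for its induction by TGF-beta, stood at 331, 331 and 386 CPM in siCtrl and 385, 331 and 291 CPM in siRCC2. The groups overlapped, and the log2 fold change of -0.06 ± 0.12 did not pass (edgeR adjusted p = 0.718).

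Among the ligands TGFB1 and GDF11 rose and GDF15 and BMP8B fell. TGFB1 (ENSG00000105329, GRCh38 chromosome 19, 41301587 to 41353911, minus strand), the main TGF-beta of epithelia, stood at 86.0, 79.9 and 83.4 CPM in siCtrl and 130, 115 and 106 CPM in siRCC2. All siRCC2 libraries lay above all siCtrl libraries, with a log2 fold change (± SE) of 0.50 ± 0.09 (edgeR adjusted p = 0.00473). TGFB1 shares 215 of 3238 exon bases with HNRNPUL1 on the opposite strand, whose counts were 9222 to 9499 in siCtrl and 6796 to 7182 in siRCC2, the other direction. TGFB1 was the highest ligand per kb of merged exons.

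GDF11, a relative of myostatin that acts through activin receptors, stood at 26.6, 29.3 and 27.2 CPM in siCtrl and 35.7, 36.4 and 35.8 CPM in siRCC2. The groups were apart with a narrow siRCC2 spread, and the log2 fold change was 0.38 ± 0.08 (edgeR adjusted p = 0.0107). It shares 386 of 8657 exon bases with SARNP on the opposite strand, which had 1381 to 1592 counts in siCtrl and 1737 to 1871 in siRCC2, and the strand setting of the counting is not given in the sources used here. How far SARNP reads enter the GDF11 counts was not tested.

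GDF15 (ENSG00000130513, chromosome 19, 18374731 to 18389176, plus strand), a distant family member known as a stress-induced hormone, had the largest fall of the 44 genes. It stood at 14.9, 12.9 and 15 CPM in siCtrl and 2.48, 2.73 and 3.30 CPM in siRCC2. The lowest siCtrl library was several times the highest siRCC2 library, with a log2 fold change (± SE) of -2.32 ± 0.15 (edgeR adjusted p = 9.00e-05), 5.01-fold lower.

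BMP8B, a BMP best known from germ cells and brown fat, stood at 18.9, 23.9 and 23.4 CPM in siCtrl and 8.95, 7.01 and 9.59 CPM in siRCC2. Again the groups were apart, with a log2 fold change of -1.37 ± 0.16 (edgeR adjusted p = 0.000732). Of the 50-base stretches of its longest transcript 12.7% occur in the neighbouring BMP8A, so the split of reads between these genes is uncertain. The sum of both was 24.1 ± 3.03 CPM in siCtrl and 9.85 ± 1.17 CPM in siRCC2 (SD, n = 3), a log2 ratio of -1.29.

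TGFB2, TGFB3, BMP4 and BMP7 did not pass. TGFB3 was a minor isoform at 3.56 to 4.28 CPM in siCtrl and 4.43 to 5.38 CPM in siRCC2; these ranges do not touch, yet the log2 fold change of 0.33 ± 0.15 missed the threshold (edgeR adjusted p = 0.128). TGFB2 ranged from 43.8 to 56.6 CPM in siCtrl and from 47.2 to 68.4 CPM in siRCC2 (log2 fold change 0.19 ± 0.16, edgeR adjusted p = 0.378). TGFB2-OT1, which lies in the TGFB2 transcript, took 190 counts in siCtrl replicate 2 against 4 to 7 in the other 5 libraries, and with both rows summed the siCtrl levels were 51.9, 54.0 and 56.8 CPM and the log2 ratio 0.09.

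BMP4, a classical BMP, showed how far single libraries could scatter. Its level was 36.1, 36.6 and 17.1 CPM in siCtrl and 29, 23.6 and 42.8 CPM in siRCC2, so that each group spanned most of the range of the other (log2 fold change 0.09 ± 0.33, edgeR adjusted p = 0.853). BMP7 was near the limit of detection at 0.206 to 0.992 CPM (log2 fold change -0.70 ± 0.47, edgeR adjusted p = 0.269). The activin subunits INHBA and INHBB and the ligand BMP2 had too few reads to test. INHBA had 0, 2 and 4 counts in siCtrl and 4, 5 and 15 in siRCC2, INHBB 0, 2 and 0 against 5, 6 and 2, and BMP2 1, 3 and 0 against 2, 7 and 5.

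**Figure D2:**
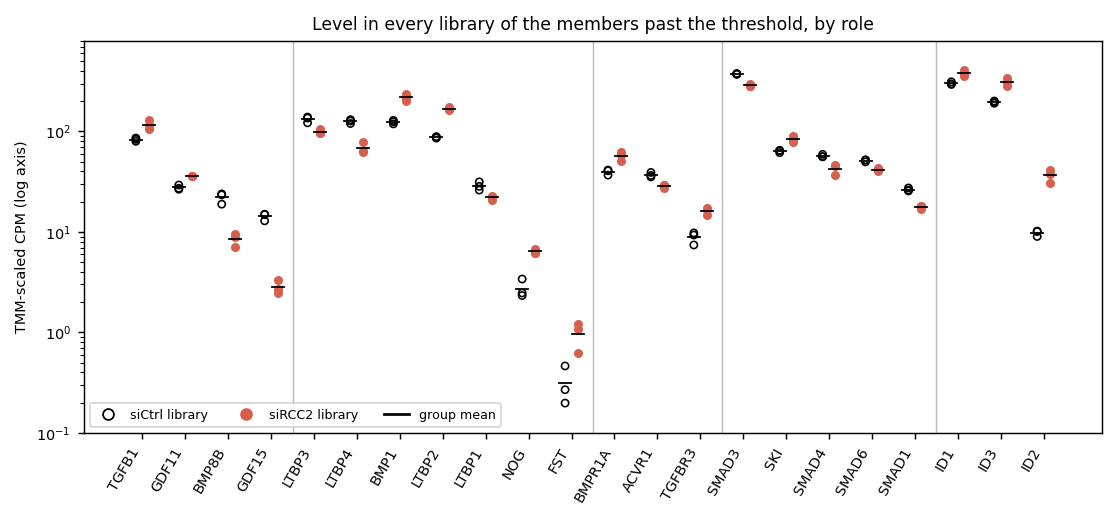
TMM-scaled CPM (y axis, log scale) in every library for the 22 genes past the threshold, by role from ligands at the left to IDs at the right; open circles are siCtrl, filled circles siRCC2 and short lines the group means (n = 3). In each of the 22 genes the circles of the groups do not overlap, and siCtrl means span 0.311 CPM for FST to 374 CPM for SMAD3.

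The plot of levels by library shows that the genes that passed were spread over 3 orders of magnitude, with ID1, ID3 and SMAD3 at the top and the antagonists noggin and follistatin at the bottom. At the low end a CPM stands for few reads: 1 CPM was 16.54 to 20.15 counts.

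The latent TGF-beta binding proteins, large matrix proteins related to fibrillin, changed in opposite directions. LTBP2, the member of the family that does not bind latent TGF-beta, rose, while LTBP1, LTBP3 and LTBP4, which do, fell. LTBP2 (ENSG00000119681, chromosome 14, 74498170 to 74612378, minus strand) stood at 88.8, 87.8 and 86.0 CPM in siCtrl and 174, 168 and 164 CPM in siRCC2. Spread within each group was small next to the gap between them, with a log2 fold change (± SE) of 0.95 ± 0.06 (edgeR adjusted p = 8.76e-05).

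LTBP4 (ENSG00000090006, chromosome 19, 40592883 to 40629818, plus strand) moved by nearly as much the other way, from 131, 127 and 120 CPM in siCtrl to 77.8, 62.8 and 64.5 CPM in siRCC2. Its groups were far apart (log2 fold change -0.88 ± 0.10, edgeR adjusted p = 0.000658). LTBP3 stood at 139, 136 and 122 CPM in siCtrl and 106, 96.7 and 96.0 CPM in siRCC2. The groups were apart by a smaller margin, with a log2 fold change of -0.41 ± 0.08 (edgeR adjusted p = 0.00608), and without siRCC2 replicate 2 the adjusted p was 0.0506. LTBP1 stood at 26.1, 31.5 and 28.4 CPM in siCtrl and 22.9, 22.4 and 21.0 CPM in siRCC2. Its log2 fold change of -0.37 ± 0.11 (edgeR adjusted p = 0.0264) did not hold without siCtrl replicate 2, siCtrl replicate 3, siRCC2 replicate 2 or siRCC2 replicate 3, where the adjusted p was 0.0947, 0.0735, 0.0970 and 0.0620.

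Summed per kb of merged exons, the 4 latent binding proteins stood at 43.0, 42.8 and 40.0 CPM in siCtrl and 42.1, 38.7 and 38.2 CPM in siRCC2, which overlap. LTBP2 made up 22.7%, 22.5% and 23.7% of that sum in siCtrl and 45.4%, 47.8% and 47.3% in siRCC2. LTBP4 went from 37.6%, 36.6% and 36.9% to 22.8%, 20.0% and 20.8%. The make-up of the family shifted on this scale while the ranges of its sum overlapped. With the median length of coding transcripts in place of merged exons the mean LTBP2 share was 14.8% in siCtrl and 33.2% in siRCC2 and the mean sum 83.3 ± 4.02 and 71.9 ± 4.03 CPM per kb, and there the sums did not overlap (78.6 to 86.0 CPM per kb in siCtrl and 69.2 to 76.5 in siRCC2).

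**Figure D3:**
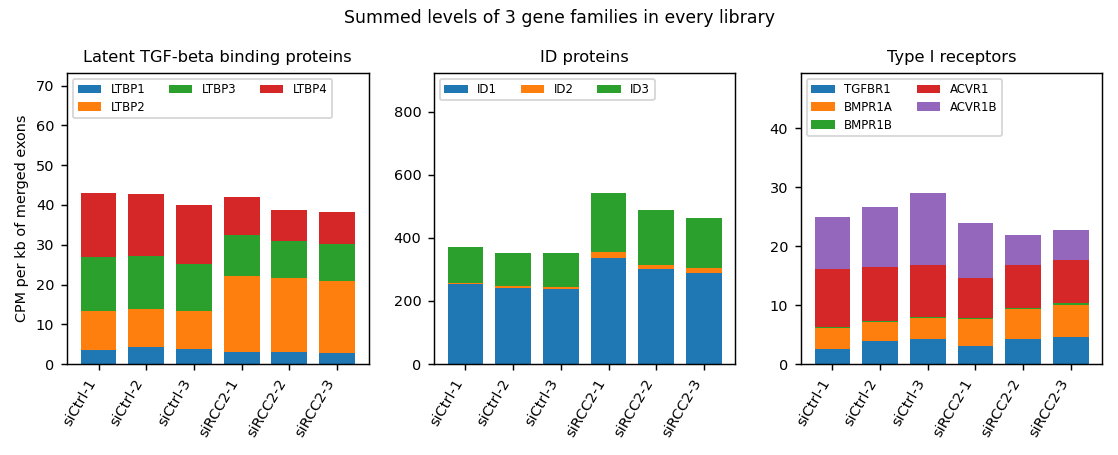
Stacked CPM per kb of merged exons (y axes, each with its own scale) of the latent TGF-beta binding proteins, the ID genes and the type I receptors in each of the 6 libraries. The LTBP2 block grows from 23.0% to 46.8% of its stack on average and BMPR1A from 12.9% to 22.1% of the type I receptors.

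The 2 antagonists that passed, noggin and follistatin, both rose from low levels. NOG (ENSG00000183691, chromosome 17, 56593699 to 56595590, plus strand), which binds BMPs and keeps them from their receptors, stood at 2.33, 3.40 and 2.47 CPM in siCtrl and 6.17, 6.80 and 6.24 CPM in siRCC2. No siCtrl library came near the siRCC2 range, and the log2 fold change was 1.23 ± 0.18 (edgeR adjusted p = 0.0019). FST, which binds activins, had 4, 5 and 9 counts in siCtrl and 18, 12 and 23 counts in siRCC2. The counts do not overlap but are small, the log2 fold change was 1.62 ± 0.43 (edgeR adjusted p = 0.0211), and the adjusted p was 0.0766, 0.0723 and 0.0629 without siCtrl replicate 1, siCtrl replicate 2 and siRCC2 replicate 3.

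The follistatin-like genes did not pass. FSTL3 stood at 49.9, 51.7 and 48.5 CPM in siCtrl and at 149, 48.6 and 46.2 CPM in siRCC2, so that siRCC2 replicate 1 alone was high. Its log2 fold change was 0.70 ± 0.44 with all libraries (edgeR adjusted p = 0.241) and -0.09 ± 0.07 without siRCC2 replicate 1 (edgeR adjusted p = 0.356). FSTL1 ranged from 9.33 to 10.6 CPM in siCtrl and from 11.2 to 12.3 CPM in siRCC2 (log2 fold change 0.24 ± 0.11, edgeR adjusted p = 0.126). GREM1, the BMP antagonist gremlin, had 0 to 3 counts in any library and was not tested.

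BMP1 is a metalloprotease and not a BMP; it cuts procollagens, latent binding proteins and the BMP antagonist chordin. It stood at 125, 129 and 119 CPM in siCtrl and 238, 202 and 216 CPM in siRCC2. The groups were far apart, with a log2 fold change (± SE) of 0.81 ± 0.08 (edgeR adjusted p = 0.000387). Per kb of merged exons it was the highest gene of this role in siCtrl, at 16.7 CPM per kb.

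Among the 11 receptors, TGFBR3 and BMPR1A rose, ACVR1 fell and the other 8 did not pass. TGFBR2, the type II TGF-beta receptor and the most abundant receptor per kb at 60.3 CPM per kb in siCtrl, stood at 286, 290 and 275 CPM in siCtrl and 293, 283 and 304 CPM in siRCC2. The groups overlapped, and the log2 fold change was 0.05 ± 0.06 (edgeR adjusted p = 0.54), a narrow error that still does not show the levels to be equal. TGFBR1, its type I partner, ranged from 18.1 to 29.3 CPM in siCtrl and from 21.5 to 31.1 CPM in siRCC2 (log2 fold change 0.13 ± 0.21, edgeR adjusted p = 0.667).

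TGFBR3 (ENSG00000069702, chromosome 1, 91680343 to 91906335, minus strand), the co-receptor betaglycan that presents TGF-beta2 and inhibin, stood at 9.78, 9.32 and 7.42 CPM in siCtrl and 14.9, 17.4 and 16.6 CPM in siRCC2. Each siRCC2 library was higher than each siCtrl library, with a log2 fold change of 0.88 ± 0.14 (edgeR adjusted p = 0.00272). BMPR1A, a type I BMP receptor, stood at 40.6, 36.8 and 41.3 CPM in siCtrl and 50.9, 58.1 and 63.1 CPM in siRCC2. It was higher in each siRCC2 library as well (log2 fold change 0.54 ± 0.10, edgeR adjusted p = 0.00618). Of its 50-base stretches 12.4% occur in transcripts of other genes, with the largest share in the pseudogene BMPR1AP1 (7.25%). With the rows of the pseudogenes BMPR1AP1 and BMPR1AP2 added the levels were 41.3 ± 2.5 and 60.9 ± 5.83 CPM (SD, n = 3), a log2 ratio of 0.56.

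ACVR1, a type I receptor for BMPs and activins, fell. It stood at 39.1, 36.5 and 35.3 CPM in siCtrl and 27.3, 29.2 and 29.4 CPM in siRCC2. The groups were apart, with a log2 fold change of -0.37 ± 0.09 (edgeR adjusted p = 0.0135), and the adjusted p was 0.0588 without siCtrl replicate 1 and 0.0511 without siRCC2 replicate 2.

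Several receptors were split among the siRCC2 libraries. ACVR1B, the type I activin receptor, stood at 50.7, 57.6 and 69.3 CPM in siCtrl and at 52.8, 28.6 and 28.6 CPM in siRCC2, with siRCC2 replicate 1 inside the siCtrl range. Its log2 fold change was -0.69 ± 0.26 (edgeR adjusted p = 0.0664), and -1.06 ± 0.14 without siRCC2 replicate 1 (edgeR adjusted p = 0.00162). BMPR2, the type II BMP receptor, showed the reverse split, at 56.6, 50.1 and 56.9 CPM in siCtrl and 25.8, 48.8 and 60.3 CPM in siRCC2; its log2 fold change was -0.28 ± 0.28 (edgeR adjusted p = 0.454) and -0.01 ± 0.11 without that library.

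ACVR2B, a type II activin receptor, had 12.5, 16.1 and 14.7 CPM in siCtrl and 6.59, 9.94 and 13.6 CPM in siRCC2 (log2 fold change -0.52 ± 0.25, edgeR adjusted p = 0.14), and without siRCC2 replicate 3 the adjusted p was 0.0285. ACVR2A (8.78 to 9.12 CPM in siCtrl and 6.29 to 9.49 CPM in siRCC2), the decoy receptor BAMBI (3.40 to 4.47 and 2.83 to 4.38 CPM) and BMPR1B (0.515 to 1.19 and 1.09 to 1.42 CPM) overlapped between groups and did not pass, with adjusted p of 0.505, 0.739 and 0.174 in edgeR.

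Summed per kb of merged exons, the 5 type I receptors stood at 25, 26.7 and 29 CPM in siCtrl and 23.9, 21.8 and 22.7 CPM in siRCC2. BMPR1A made up 14.2%, 12.1% and 12.5% of that sum in siCtrl and 18.7%, 23.3% and 24.4% in siRCC2. The type II receptors, of which TGFBR2 is the bulk, summed to 67.1 ± 1.43 CPM per kb in siCtrl and 68.0 ± 3.46 in siRCC2 (SD, n = 3).

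Among the SMADs every one that passed was lower in siRCC2: SMAD1, SMAD3, SMAD4 and SMAD6. SMAD1 (ENSG00000170365, chromosome 4, 145481194 to 145558079, plus strand), a receptor SMAD of the BMP branch, stood at 26.1, 27.4 and 25.6 CPM in siCtrl and 18.1, 18.3 and 16.8 CPM in siRCC2. Both groups were tight and apart, with a log2 fold change (± SE) of -0.57 ± 0.09 (edgeR adjusted p = 0.00286).

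SMAD3 (ENSG00000166949, chromosome 15, 67063763 to 67195195, plus strand), a receptor SMAD of the TGF-beta branch and the most abundant SMAD per kb, stood at 375, 377 and 370 CPM in siCtrl and 285, 299 and 283 CPM in siRCC2. The groups were well separated for a small change, with a log2 fold change of -0.37 ± 0.06 (edgeR adjusted p = 0.00208). SMAD2, its partner, stood at 96.0, 132 and 126 CPM in siCtrl and 87.4, 90.0 and 97.3 CPM in siRCC2. Here siCtrl replicate 1 lay within the siRCC2 range, and the log2 fold change of -0.36 ± 0.13 was just short of the threshold (edgeR adjusted p = 0.0535), which it passed without siCtrl replicate 1 (edgeR adjusted p = 0.0101), with upper quartile scaling (0.0423), with total counts alone (0.0366) and with all genes of at least 1 read tested (0.0443).

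SMAD4, the partner of all receptor SMADs, stood at 59.2, 55.9 and 56.3 CPM in siCtrl and 36.9, 45.0 and 46.2 CPM in siRCC2. It was lower in each siRCC2 library (log2 fold change -0.42 ± 0.10, edgeR adjusted p = 0.0164), and the adjusted p was 0.0618 without siCtrl replicate 1. SMAD6, an inhibitory SMAD of the BMP branch, stood at 51.9, 52.2 and 49.8 CPM in siCtrl and 42.9, 42.2 and 40.0 CPM in siRCC2. Its groups were apart as well, with a log2 fold change of -0.30 ± 0.08 (edgeR adjusted p = 0.0178), and the adjusted p was 0.0666, 0.0666 and 0.0938 without siCtrl replicate 1, siCtrl replicate 2 and siRCC2 replicate 2.

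The BMP receptor SMADs SMAD5 and SMAD9 and the inhibitory SMAD7, known as a feedback target of TGF-beta, did not pass. SMAD5 ranged from 44.4 to 52.8 CPM in siCtrl and from 33.1 to 57.5 CPM in siRCC2 (log2 fold change -0.08 ± 0.19), SMAD9 from 5.16 to 7.33 and from 5.80 to 7.32 CPM (0.13 ± 0.18), and SMAD7 from 16.8 to 19.8 and from 16.7 to 20.9 CPM (-0.02 ± 0.13). The 5 receptor SMADs together stood at 573 ± 18.8 CPM in siCtrl and 451 ± 18.2 CPM in siRCC2 (SD, n = 3), not scaled by length. SMAD3 made up 65.3% and 64.1% of those sums on average. Its mean share was 74.5% and 73.1% per kb of merged exons, and 88.2% and 88.0% per kb of median coding transcript.

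SKI was the 1 gene of this role that rose. It is a corepressor that binds SMADs, and it stood at 64.9, 64.3 and 61.6 CPM in siCtrl and 90.4, 83.6 and 78.2 CPM in siRCC2. All siRCC2 libraries were above all siCtrl libraries (log2 fold change 0.40 ± 0.08, edgeR adjusted p = 0.00676). Its relative SKIL, a TGF-beta target that also binds SMADs, was scattered in both groups, at 32.8, 11.2 and 23.3 CPM in siCtrl and 9.07, 18.9 and 27.4 CPM in siRCC2 (log2 fold change -0.28 ± 0.47, edgeR adjusted p = 0.666).

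The ubiquitin ligases SMURF1 and SMURF2, which mark SMADs and receptors for breakdown, did not pass with all libraries. SMURF1 ranged from 82.9 to 94.7 CPM in siCtrl and from 87.6 to 94.1 CPM in siRCC2 (log2 fold change 0.05 ± 0.08, edgeR adjusted p = 0.625). SMURF2 stood at 92.3, 92.6 and 98.7 CPM in siCtrl and 80.0, 108 and 119 CPM in siRCC2, with siRCC2 replicate 1 on the other side of siCtrl from the other siRCC2 libraries. Its log2 fold change was 0.11 ± 0.14 (edgeR adjusted p = 0.559) with all libraries and 0.25 ± 0.07 without siRCC2 replicate 1 (edgeR adjusted p = 0.0313).

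**Figure D4:**
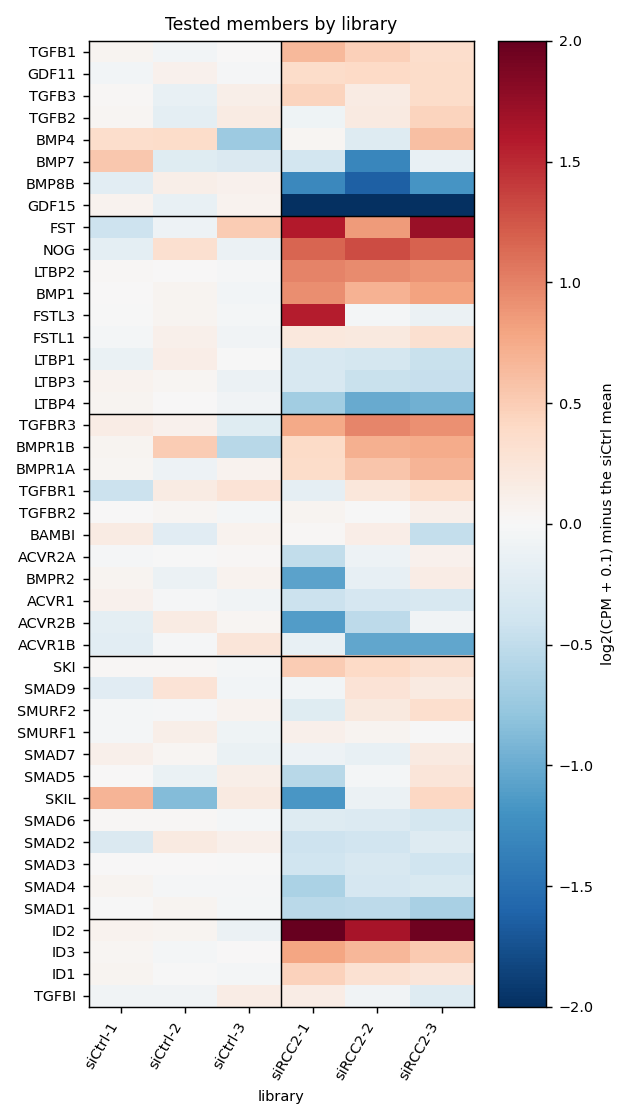
Log2(CPM + 0.1) minus the siCtrl mean (colour, limited to -2 and 2) for the 44 tested genes (rows, by role and fold change) in the 6 libraries (columns). ID2, NOG and LTBP2 are red and GDF15 and BMP8B blue in all 3 siRCC2 libraries, while FSTL3 is red in siRCC2 replicate 1 alone and ACVR1B is near the siCtrl mean in that library and blue in the other siRCC2 libraries.

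The heat map by library sets the 22 genes that passed, with the same sign in every siRCC2 library, beside those where the siRCC2 libraries disagree. Without siRCC2 replicate 1 all 22 passed in the same direction. FSTL3, ACVR1B, BMPR2 and SMURF2, singled out after their values were seen, are examples of genes in which siRCC2 replicate 1 lay apart from the other siRCC2 libraries. In SMAD5 (33.1, 47.3 and 57.5 CPM) and SKIL (9.07, 18.9 and 27.4 CPM) siRCC2 replicate 1 was the lowest siRCC2 library. There the siRCC2 libraries were spread more evenly.

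Per kb of merged exons the highest of the 49 genes in siCtrl were ID1 at 245, ID3 at 109, TGFBR2 at 60.3, TGFBI at 44.8, SMAD3 at 41.0 and TGFB1 at 25.7 CPM per kb. With median coding transcripts as the length SMAD3 moved to rank 2 of the 49, at 244 CPM per kb, with a median coding transcript of 1.53 kb against 9.11 kb of merged exons. ID1 was first on both scales.

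Other genes of the pathway, listed by role with earlier results of these data known, also went both ways. Of 22 further ligands 8 had enough reads, 1 was higher and 2 were lower (median log2 fold change -0.60), and 2 were higher without siCtrl replicate 1 or without siRCC2 replicate 3. GDF5, a BMP-like ligand of joints, rose from 0.703 ± 0.0792 to 2.30 ± 0.69 CPM (1.69 ± 0.30, edgeR adjusted p = 0.0043). The inhibin genes INHBE and INHA fell, INHBE from 1.06 ± 0.19 to 0.0921 ± 0.0355 CPM (-3.46 ± 0.41, edgeR adjusted p = 0.00075) and INHA from 0.818 ± 0.368 to 0.132 ± 0.0981 CPM (-2.62 ± 0.59, edgeR adjusted p = 0.011). All 3 are at about 1 CPM or below in siCtrl, so these folds rest on few reads.

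Of 12 further receptors and co-receptors 5 were tested, 1 higher and 1 lower (median -0.14). CD109, a surface protein that binds TGF-beta, fell from 95.2 ± 3.46 to 64.7 ± 13.5 CPM (-0.56 ± 0.15, edgeR adjusted p = 0.0229), with an adjusted p of 0.0686, 0.0525 and 0.0678 when siCtrl replicate 1, 2 or 3 was left out. ENG, the co-receptor endoglin, had under 1 CPM in both groups (0.377 ± 0.0987 and 0.964 ± 0.317 CPM, 1.35 ± 0.38, edgeR adjusted p = 0.0263); without siCtrl replicate 1, 2 or 3 its adjusted p was 0.0751, 0.0894 and 0.0556, and without siRCC2 replicate 2 or 3 it was 0.0800 and 0.0782.

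Of 29 further secreted antagonists and activators 15 were tested, 3 higher and 6 lower (median -0.20). CRIM1, a membrane protein that binds BMPs, fell from 706 ± 6.07 to 301 ± 22.5 CPM (-1.23 ± 0.07, edgeR adjusted p = 5.73e-05). NBL1, a BMP antagonist of the DAN family, rose from 24.9 ± 1.09 to 64.6 ± 8.02 CPM (1.38 ± 0.11, edgeR adjusted p = 0.000185). HTRA1, a protease that cuts family ligands and matrix proteins, fell (-0.73 ± 0.09, edgeR adjusted p = 0.000737), as did THBS1, the TGF-beta activator thrombospondin, from 197 ± 2.47 to 150 ± 3.57 CPM (-0.40 ± 0.06, edgeR adjusted p = 0.00186). With NOG and FST higher and CRIM1 lower, genes that bind BMPs or activins outside the cell went both ways.

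Of 35 further regulators inside the cell 33 were tested, 4 higher and 8 lower (median -0.15). PPP1R15A, a phosphatase subunit that acts on the type I receptor and in the stress response, fell from 153 ± 3.53 to 74.0 ± 3.55 CPM (-1.04 ± 0.07, edgeR adjusted p = 8.85e-05), and the ubiquitin ligase STUB1 fell (-0.93 ± 0.10, edgeR adjusted p = 0.000625). STRAP, which binds receptors and SMAD7, rose (0.76 ± 0.07, edgeR adjusted p = 0.000272), and so did FKBP1A, which holds type I receptors inactive, from 112 ± 2.60 to 195 ± 17.5 CPM (0.79 ± 0.08, edgeR adjusted p = 0.000445).

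Known target genes were split too. Of 27 targets of TGF-beta SMADs 26 were tested, 10 higher and 6 lower (median 0.10). COL4A1, a basement membrane collagen, rose from 30.8 ± 1.92 to 146 ± 3.07 CPM (2.25 ± 0.08, edgeR adjusted p = 2.00e-05), whereas CCN2 fell from 150 ± 4.26 to 67.9 ± 1.58 CPM (-1.14 ± 0.06, edgeR adjusted p = 5.73e-05). CCN1 and JUNB also fell (-0.75 ± 0.07 and -0.96 ± 0.08, edgeR adjusted p = 0.000315 and 0.000201). Of 16 BMP targets outside the ID family 13 were tested, 2 higher and 4 lower (median 0.07), and without siCtrl replicate 2, siCtrl replicate 3, siRCC2 replicate 2 or siRCC2 replicate 3 the lower ones were 2. UNC5B, a netrin receptor, fell from 5.48 ± 0.251 to 1.71 ± 0.0389 CPM (-1.68 ± 0.15, edgeR adjusted p = 0.00024) and HEY1, also a Notch target, from 2.18 ± 0.511 to 0.302 ± 0.23 CPM (-2.8 ± 0.46, edgeR adjusted p = 0.00284). GATA2 rose from 26.0 ± 1.46 to 38.7 ± 1.56 CPM (0.57 ± 0.09, edgeR adjusted p = 0.00234) and TNFRSF11B, a decoy receptor of bone turnover, from 0.539 ± 0.233 to 1.84 ± 0.604 CPM (1.78 ± 0.39, edgeR adjusted p = 0.00962).

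**Figure D5:**
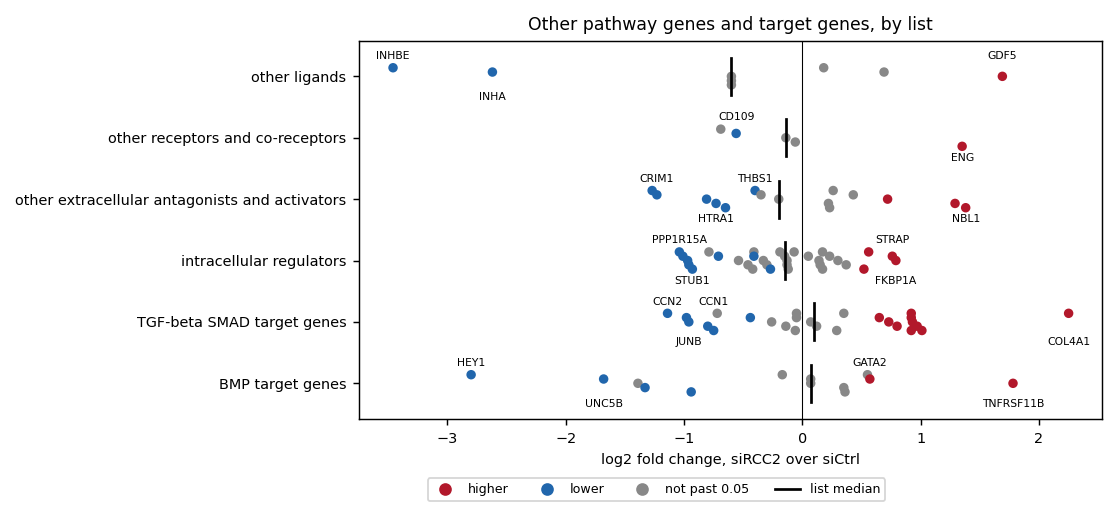
Log2 fold change of siRCC2 over siCtrl (x axis) for the tested genes of the 6 further lists (rows), red higher and blue lower at an adjusted p of 0.05, grey not past it; black bars are list medians and names mark the genes given in the text. COL4A1 at 2.25 lies at the right end and INHBE at -3.46 at the left end, and each list holds genes on both sides of 0.

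The plot of the further lists shows medians from -0.60 to 0.10 beside -0.02 for all tested genes. The share of tested genes that passed ran from 36.4% for the regulators inside the cell to 61.5% for the TGF-beta SMAD targets. Among all tested genes 41.8% passed, 20.7% higher and 21.1% lower. Whether any list differed from that share was not tested. The ID genes, which all rose where detected, thus stood beside a list of other BMP targets with 2 higher and 4 lower, or 2 lower without any 1 of the 4 libraries named above; the difference between them was not tested.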

How the data were processed

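Per the labels' protocols, an MGI kit turned total RNA into libraries. Bowtie2, RSEM, DESeq2 and the build GRCh38 are named by the submitters' processing notes; the versions, the annotation and the strand setting were not given in the sources used here. The authors deposited whole-number counts per gene and library, which may be rounded RSEM estimates, so genes of shared sequence depend on how reads were divided. The TGF-beta and BMP genes and the further lists were chosen with earlier results of these data known.

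The test of the 6 libraries used edgeR 4.0.16 under R 4.3.3 (filterByExpr, TMM, glmQLFit and glmQLFTest, group as the only term), with Benjamini-Hochberg adjustment over 16536 genes and a threshold of 0.05. SE was taken as log2 fold change over the root of F. Library totals were 17377191 to 19895431 counts, and the biological coefficient of variation was 16.6%. Within groups, pairs of libraries differed beyond sampling noise (10.2 to 34.3 in chi-square units per degree of freedom) and each counted as 1 replicate. CPM per kb used GENCODE 29, which holds 50111 of 50868 gene IDs, and gives an order between genes only roughly; 50-base stretches were compared between its transcripts. Promoters are from RefSeq on GRCh38.p14, which had windows for 44 of the 49 genes.

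Values in every library are printed for genes called at 0.05 whose mean reached 1 CPM, for genes that lead a role and for the highest gene per kb of each role. Group means or fold changes alone are printed for up to 4 genes with the smallest p from each further list. FST, and genes short of the threshold shown by library, fall outside that rule and were chosen after their values were seen. Some marker genes are not reported here. The fit was tested on simulated data. Alternatives were DESeq2 size factors, upper quartile and total count scaling, DESeq2 1.42.0, limma-voom (limma 3.58.1), 2 other filters, a replicate block, each library left out and a threshold of 0.01. Coding transcript lengths and sums of rows with shared sequence were added after seeing the data. Tables and figures were made with Python 3.11.15, pandas 2.3.3 and matplotlib 3.10.9.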

Additional observations from a re-analysis of the deposited data

How the results depend on the processing

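Of the 22 pathway genes past the threshold, 15 kept their call at 0.05 and their direction in every alternative fit that gave a value and 7 lost the call in at least 1: LTBP1, LTBP3, FST, ACVR1, SMAD4, SMAD6 and ID1; none of the 22 changed direction. At an adjusted p of 0.01, 4117 of all genes passed, with 9 pathway genes higher and 6 lower in siRCC2; of the 15, GDF11 did not pass there. The count of lower pathway genes ran from 6 (without siRCC2 replicate 2) to 11 (without siRCC2 replicate 1) when 1 library was left out. Calls over all genes moved the same way. They were 5112 of 16904 tested genes without siRCC2 replicate 2 and 7565 of 16997 without siRCC2 replicate 1, against 6911 of 16536 with all libraries. With total counts alone TGFBR2 and SMURF1, not past the threshold, changed sign to -0.019 and -0.018. Leaving out 1 library turned the sign of 9 further genes that did not pass. The lowest and highest log2 fold changes were -0.195 and 0.272 for BMP4, -0.091 and 0.994 for FSTL3, -0.061 and 0.261 for TGFBR1, -0.207 and 0.075 for BAMBI, -0.274 and 0.088 for SMAD5, -0.125 and 0.054 for SMAD7, -0.006 and 0.245 for SMURF2, -0.677 and 0.097 for SKIL, and -0.181 and 0.039 for TGFBI; the cause was not tested. ACVR1B passed with total counts alone, DESeq2 and limma-voom (adjusted p = 0.0451, 0.0312 and 0.0407).

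Replicate numbers shared between groups were not taken as pairs in the main fit. Deviations of same-numbered libraries from their group means correlated at 0.0591, -0.0417 and 0.0987, and not every library correlated best with its own number. With 3 libraries a group these correlations cannot settle whether the libraries were paired. With the number as a replicate block 6295 genes passed in place of 6911, and 12 pathway genes were higher and 10 lower; LTBP1 no longer passed (adjusted p = 0.0526) and SMAD2 did (adjusted p = 0.0465). With 3 libraries a group, genes below 1 CPM rest on fewer than about 20.15 counts a library.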
